A study of Mus musculus with 48 samples.

Results

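H3K27me3, the trimethyl mark on lysine 27 of histone H3, was compared between Zfp131KO and wildtype mouse embryonic stem cells by ChIP-seq. The comparison takes 4 of the 48 libraries of the series, 2 per genotype, chosen by their labels. Its regions are those of 200 bp or more in the authors' deposited table of the contrast, 19366 of 73570. The wildtype cells are Ainv15(iCre), and the knockout cells are Ainv15(iZfp131-HA Zfp131KO), a line that lacks Zfp131 and carries an HA-tagged copy under doxycycline control. Both were grown for 3 days with LIF but without the 2i kinase inhibitors and without doxycycline, so the tagged copy was not induced. With 1 line per genotype, the knockout and the line cannot be told apart. Nothing in the labels ties the replicates to different cultures, so p-values reflect the scatter of these libraries alone, and that scatter may be technical. The deposited values are pooled over, or fitted to, the 2 libraries of a genotype, so no value per library can be shown.

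H3K27me3 is laid down by Polycomb repressive complex PRC2, whose catalytic subunit is Ezh2 or Ezh1, and is bound by the Cbx proteins of PRC1. In embryonic stem cells it covers CpG-rich promoters of silent developmental regulators, often together with the activating mark H3K4me3, a state called bivalent. Active promoters carry H3K4me3 and H3K27ac and normally lack H3K27me3. H3K27ac and H3K27me3 sit on the same lysine, so 1 histone tail carries either but not both. ZFP131 is a zinc finger protein with a BTB domain that binds DNA.

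Embryonic stem cell markers carried H3K4me3 at their starts in both genotypes. The pooled reads of the listed, unscaled H3K4me3 domains in wildtype and Zfp131KO were 4509 and 4005 at Pou5f1, 10545 and 6069 at Sox2, 5846 and 1462 at Nanog and 4989 and 1968 at Zfp42. Markers of primitive endoderm, an early extra-embryonic cell type, had more in the knockout. The reads were 528 and 3077 at Gata6 and 1603 and 3582 at Sox17, and Gata4 had none listed in wildtype and 253 in the knockout. In the authors' deposited table of H3K4me3, 9 of the 15 primitive endoderm genes with a region were called higher and 0 lower, against 34.4% higher over all gene starts. H3K27ac went the other way: of 7 primitive endoderm genes with a region 6 were called lower and 0 higher, with a median of -1.34. Of 27 pluripotency genes, 2 were called higher and 0 lower for H3K4me3 in the authors' deposited table, with a median of -0.05. For H3K27ac, 9 of 23 pluripotency genes with a region were called higher and 1 lower, with a median of 0.57. Over all gene starts, H3K27ac was called higher at 3.32% and lower at 8.98%. The fibroblast genes Col1a1, Col1a2 and Thy1 had 672, 232 and 348 reads in wildtype and 483, 261 and 267 in the knockout. At the start of the deleted gene Zfp131 no H3K27me3 domain was listed in either genotype, and H3K4me3 stood at 2708 and 2247 reads, which does not check the deletion.

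H3K27me3 changed in opposite directions at 2 kinds of place. Broad Polycomb domains over silent developmental genes had lower values in Zfp131KO on the authors' scale and were listed in pieces. Most of their lower calls were lost once the median over regions of 200 bp or more was subtracted. At the same time a small set of promoters gained domains where wildtype had none, among them those of Nup214, Ddx51, Exosc7 and Adar. These promoters were bound by induced HA-tagged ZFP131 in another culture. The promoters below show the DNA of genes that gained a domain and of genes that lost one, not of the broad domains. They are RefSeq sequences of GRCm38.p6 (mm10), 300 bases each, from 250 before to 50 after the gene start, with every CpG dinucleotide in capitals, since CpG-rich DNA is where Polycomb is known to settle. Nup214, Ddx51, Exosc7, Rmdn3 and Adar are promoters inside new domains, and Neurod1, Plk2 and Cdkn1a belong to genes whose wildtype domain was no longer listed. Those wildtype domains were 1280, 1617 and 955 bp wide in that order. The bases printed for Neurod1 and Cdkn1a lie outside them.
Nup214 (chr2:31974200-31974499, plus strand): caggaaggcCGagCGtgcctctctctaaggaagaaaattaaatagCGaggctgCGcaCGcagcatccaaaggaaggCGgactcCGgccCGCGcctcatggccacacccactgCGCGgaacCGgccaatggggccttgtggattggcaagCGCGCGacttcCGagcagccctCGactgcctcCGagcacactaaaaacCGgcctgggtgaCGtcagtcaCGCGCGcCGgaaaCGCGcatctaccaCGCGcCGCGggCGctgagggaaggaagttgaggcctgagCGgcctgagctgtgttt
Ddx51 (chr5:110653201-110653500, plus strand): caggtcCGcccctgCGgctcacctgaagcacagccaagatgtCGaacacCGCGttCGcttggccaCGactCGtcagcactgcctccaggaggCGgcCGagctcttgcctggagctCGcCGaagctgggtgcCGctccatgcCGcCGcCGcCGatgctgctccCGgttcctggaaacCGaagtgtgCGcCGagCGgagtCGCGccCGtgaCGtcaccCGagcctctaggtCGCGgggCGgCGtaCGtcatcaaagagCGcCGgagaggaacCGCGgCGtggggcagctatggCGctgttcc
Exosc7 (chr9:123112981-123113280, plus strand): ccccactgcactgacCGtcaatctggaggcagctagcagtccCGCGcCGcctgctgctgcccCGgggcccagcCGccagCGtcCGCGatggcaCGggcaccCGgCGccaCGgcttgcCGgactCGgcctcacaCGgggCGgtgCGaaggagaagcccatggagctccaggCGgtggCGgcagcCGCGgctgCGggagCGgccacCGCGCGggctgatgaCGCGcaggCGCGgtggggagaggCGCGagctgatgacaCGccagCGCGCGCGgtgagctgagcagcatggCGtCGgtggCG
Rmdn3 (chr2:119156985-119157284, minus strand): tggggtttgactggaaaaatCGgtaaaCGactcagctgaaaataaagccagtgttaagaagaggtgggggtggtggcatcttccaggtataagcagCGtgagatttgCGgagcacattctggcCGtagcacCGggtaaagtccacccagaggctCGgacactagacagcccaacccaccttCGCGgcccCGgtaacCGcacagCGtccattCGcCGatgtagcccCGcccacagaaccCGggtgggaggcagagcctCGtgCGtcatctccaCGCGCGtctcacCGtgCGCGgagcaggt
Adar (chr3:89714988-89715287, plus strand): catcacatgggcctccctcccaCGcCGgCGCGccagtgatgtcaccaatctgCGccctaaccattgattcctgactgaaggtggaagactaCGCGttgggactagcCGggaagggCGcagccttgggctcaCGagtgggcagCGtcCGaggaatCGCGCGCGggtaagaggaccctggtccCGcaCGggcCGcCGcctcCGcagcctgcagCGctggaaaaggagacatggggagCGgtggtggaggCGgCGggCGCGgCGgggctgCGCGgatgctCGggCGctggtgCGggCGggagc
Neurod1 (chr2:79456587-79456886, minus strand): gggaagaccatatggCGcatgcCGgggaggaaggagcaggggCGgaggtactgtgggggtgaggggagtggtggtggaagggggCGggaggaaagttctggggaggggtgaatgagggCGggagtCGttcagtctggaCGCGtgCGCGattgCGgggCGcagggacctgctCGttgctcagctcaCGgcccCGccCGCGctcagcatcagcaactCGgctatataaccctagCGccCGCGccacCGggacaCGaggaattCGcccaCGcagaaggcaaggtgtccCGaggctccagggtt
Plk2 (chr13:110394794-110395093, plus strand): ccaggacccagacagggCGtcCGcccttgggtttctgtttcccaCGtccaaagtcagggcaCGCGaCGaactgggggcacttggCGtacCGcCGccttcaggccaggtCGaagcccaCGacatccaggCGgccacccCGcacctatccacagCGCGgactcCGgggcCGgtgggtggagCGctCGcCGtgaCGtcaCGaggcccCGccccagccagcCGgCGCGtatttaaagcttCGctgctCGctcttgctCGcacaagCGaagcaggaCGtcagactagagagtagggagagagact
Cdkn1a (chr17:29093519-29093818, plus strand): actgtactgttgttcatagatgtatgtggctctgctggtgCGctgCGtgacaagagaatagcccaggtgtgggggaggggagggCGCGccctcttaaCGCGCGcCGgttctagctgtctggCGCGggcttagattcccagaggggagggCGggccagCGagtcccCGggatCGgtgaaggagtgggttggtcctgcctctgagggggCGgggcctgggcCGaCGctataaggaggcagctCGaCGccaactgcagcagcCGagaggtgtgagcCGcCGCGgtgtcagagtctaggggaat

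Promoters in the wide new domains were rich in CpG. The sequences above hold 32 CpG at Nup214, 38 at Ddx51, 41 at Exosc7, 24 at Rmdn3 and 34 at Adar, where another start inside the same domain has 6. Those of genes that lost their domain hold 26 at Neurod1, 31 at Plk2 and 23 at Cdkn1a, where another start has 2. The median was 13 over all 21263 promoters of protein-coding genes in the RefSeq table and 19 over 3858 promoters of bivalent genes. It was 36 over the 16 promoters that overlap a new domain of 1 kb or more, 32 over the 31 in new domains of 500 bp or more and 22 over the 95 in all new domains. Promoters within 500 bp of a ZFP131 event, whether or not they gained H3K27me3, had a median of 26 CpG. The letters GTCGCA or GTCGCG, read on either strand, are the half-site reported for the human counterpart ZNF131. They were found in 4 of the 16 promoters (25.0%), against 13.7% of all promoters and 27.9% of those with 20 or more CpG. A match is a description of letters, not a site.

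Over the regions of 200 bp or more, H3K27me3 was more often lower than higher. In the authors' deposited table, 571 regions were called higher in Zfp131KO (2.95% of those tested) and 1351 lower (6.98%), at an adjusted p under 0.05 of the DESeq2 Wald test. Regions of any width went the other way, with 8590 higher and 4545 lower. Their median log2 fold change, Zfp131KO over wildtype, was 0.01. The median over regions of 200 bp or more was -0.31. ChIP without a spike-in gives no absolute scale, so a loss of the mark everywhere and a lower enrichment in the knockout libraries cannot be told apart. When this median was subtracted from every region, with p adjusted over the whole table as before, 1386 were higher and 307 lower, so the share of higher calls went from 29.7% to 81.9%. At gene starts 49 were still called lower after this centring, among them Plk2, Cdkn1a, Neurod1, Hoxc13 and Nkx2-9.

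The shift grew with the width of a region. In the authors' deposited table, regions of 200 to 500 bp had a median log2 fold change of -0.12, with 5.51% called higher and 5.27% lower. Regions of 1 to 2 kb had -0.38, with 0.983% higher and 6.55% lower. Regions of 2 to 5 kb had -0.58, with 0.161% higher and 12.7% lower. Among the 291 regions of 5 to 10 kb the median was -0.76 and 104 were lower, and among the 52 of 10 kb or more it was -0.87 and 32 were lower. No region of 5 kb or more was called higher. Each region overlaps a listed domain of wildtype or Zfp131KO, and wildtype listed 271 domains of 5 kb or more against 21 in Zfp131KO. Wide regions thus come mostly with a wide wildtype domain, a choice that helps to set this direction. After centring, lower calls went from 136 to 8 among the 343 regions of 5 kb or more and from 315 to 35 among those of 2 to 5 kb. The values of the table scale as reads per kb. This was checked on regions with the same coordinates as a wildtype domain. The median ratio of mean signal to pooled wildtype reads per kb was 0.443 at 200 to 500 bp and 0.368 at 5 kb or more. A wide region is thus not credited with its larger number of reads. The authors adjusted p over the whole table. Adjusted over the regions of 200 bp or more alone, 358 were higher and 591 lower, and with the counting part of each SE also recomputed for the reads of the region, 168 and 356.

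**Figure D1:**
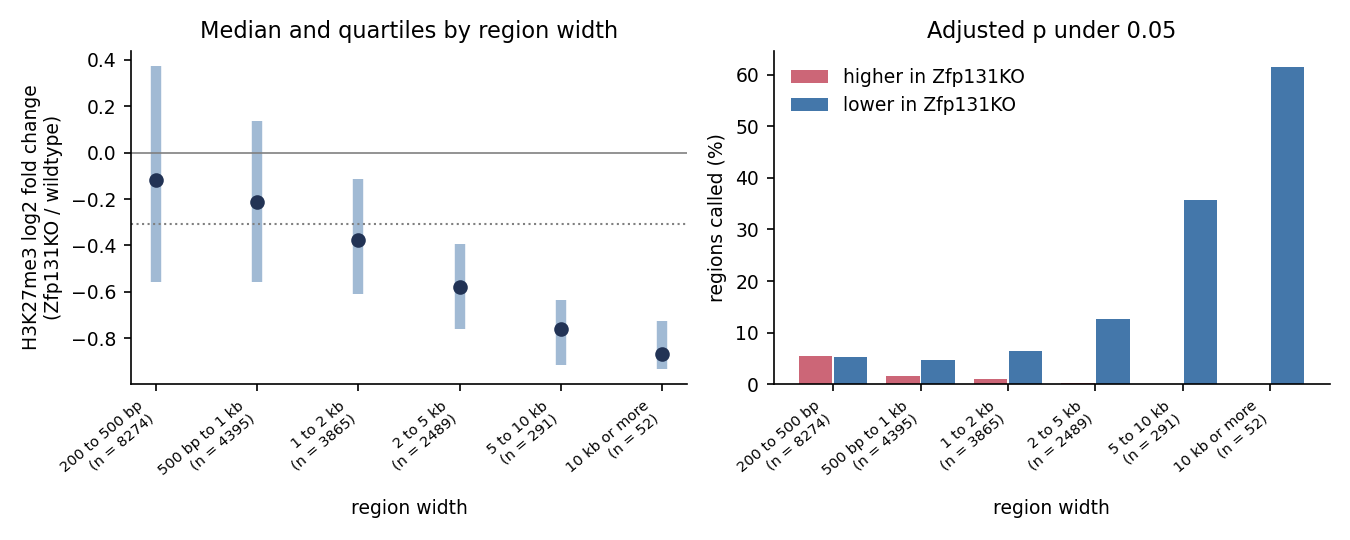
Left, the median (points) and quartiles (bars) of the log2 fold change of H3K27me3 in the authors' deposited table by region width, with the median of all regions of 200 bp or more (-0.31) as a dotted line. Right, the percentage of regions called higher or lower at an adjusted p under 0.05. Lower calls reach 61.5% of the 52 regions of 10 kb or more, where none is higher. Of domains this wide, wildtype listed 43 and Zfp131KO 0, so the choice of regions helps to set the direction.

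The domain lists, called by the authors on the pooled libraries of each genotype, showed the same broad domains in pieces. Wildtype had 271 domains of 5 kb or more and 43 of 10 kb or more, the widest of 31.1 kb. Zfp131KO had 21 and 0, with a widest of 8.25 kb, and Zbtb11KO, a knockout of the related factor from the same series, had 132 and 10. The number of domains of 200 bp or more hardly differed, at 13182 in wildtype, 13160 in Zfp131KO and 13792 in Zbtb11KO. They covered 14.9 Mb in wildtype at 393 pooled reads per kb, 9.61 Mb in Zfp131KO at 305 and 12.9 Mb in Zbtb11KO at 369. Control reads over the same domains were 21.6, 22.2 and 21.5 per kb, and the lists give no library totals, so depth may differ between them.

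Within the wildtype domains of 10 kb or more, the Zfp131KO list still covered a median of 75.7% of the length, in 12 pieces, with 44.4% of the wildtype reads. All 43 were in more than 1 piece, as were 41 of them in Zbtb11KO. They were chosen as unbroken in the wildtype list, which helps to set this direction. In Zbtb11KO, whose list was compared with the same wildtype list, the coverage was 92.6%, in 6 pieces, with 76.3% of the reads. For wildtype domains of 1 to 2 kb the knockout covered a median of 66.7% of the length, in 2 pieces, with 54.4% of the reads. Domains of 1 kb or more were rarely lost whole: 40 of 4674 had no domain left in Zfp131KO and 12 in Zbtb11KO.

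The domain with the most wildtype reads lay over Hoxa3 to Hoxa10 in the Hoxa cluster (chr6:52211052-52242175), homeobox genes that pattern the body axis. It held 16857 reads in wildtype and 8124 in Zfp131KO, where it was split into 31 domains, and 10101 in Zbtb11KO in 23. The authors' deposited table gave this region a log2 fold change of -0.79 (SE 0.32, adjusted p = 0.0640), which did not pass. The domain at Six3, a homeobox gene of the forebrain and eye, fell from 11869 to 4751 reads, with a log2 fold change of -0.95 (SE 0.32, adjusted p = 0.0242) from the authors' deposited table. The Hoxd8 to Hoxd10 domain went from 11731 to 4067 reads in 21 pieces, with -1.08 (SE 0.34, adjusted p = 0.0158) from the authors' deposited table.

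Gene starts were examined next, with each protein-coding gene given the region of highest mean signal lying within 1 kb of its start. Of 21900 genes, 4550 had a region, and these shared 4374 regions. By the authors' deposited table, 201 of them were called higher (4.42%) and 334 lower (7.34%), with a median log2 fold change of -0.40. Genes marked in wildtype were on one side and unmarked genes on the other, which the choice by the wildtype list helps to set. Of the 4031 genes with a wildtype domain, 9 were called higher and 334 lower, with a median of -0.45. The 519 genes with a region but no wildtype domain of 200 bp gave 192 of the 201 higher calls.

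Bivalent genes, with both H3K27me3 and H3K4me3 in wildtype, numbered 3793. Of these, 9 were called higher and 316 lower in the authors' deposited table, with a median of -0.46. The 238 genes with H3K27me3 alone had 0 higher and 18 lower, with a median of -0.40. H3K4me3 was measured in other libraries of the same lines. It was called higher at 127 of the 316 bivalent genes where H3K27me3 fell (40.2%) and lower at 1. At the 3468 bivalent genes with no H3K27me3 call it was higher at 27.1% and lower at 0.952%. The background over all gene starts in the authors' deposited H3K4me3 table was 34.4% higher and 3.59% lower. H3K27ac had a region at 39 of the genes where H3K27me3 fell, 10 of them higher and 4 lower, against 3.32% and 8.98% over all gene starts. At the 201 genes where H3K27me3 rose, of 142 with an H3K27ac region 75 were lower and 2 higher in the authors' deposited table.

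The deepest falls were at genes whose wildtype domain was absent from the knockout list. Plk2, a polo-like kinase induced by stress, had 563 pooled reads in wildtype and no listed domain in Zfp131KO (chr13:110394978-110396595). The authors' deposited table gave a log2 fold change of -3.39 (SE 0.52, adjusted p = 1.13e-08), the lowest of all 19366 regions. H3K4me3 at its start rose by 1.09 (SE 0.11, adjusted p = 6.62e-19) in the authors' deposited H3K4me3 table, while H3K27ac gave 0.37 (adjusted p = 0.390). Cdkn1a, which encodes the cell cycle inhibitor p21 and is a target of p53, had 396 reads and none. Its H3K27me3 fell by 2.43 (SE 0.41, adjusted p = 3.29e-07) and its H3K4me3 rose by 1.18 (SE 0.14, adjusted p = 1.30e-15) from the authors' deposited tables. Both genes also lay among those still lower after the median of all regions was subtracted. Plk2, Phlda1 and Zbtb7b fall below the signal level of the rule for named genes and were named after their values were seen. Phlda1 and Zbtb7b gave -2.02 (SE 0.44, adjusted p = 0.000177) and -2.08 (SE 0.36, adjusted p = 7.71e-07) from the authors' deposited table, each with 0 reads listed in Zfp131KO. These 3 genes were also lower in Zbtb11KO, against the same wildtype libraries. There Plk2 gave -2.05 (SE 0.35, adjusted p = 7.03e-07) and Phlda1 -1.60 (SE 0.40, adjusted p = 0.00178) from the authors' deposited table, both with 0 listed reads. Zbtb7b gave -1.003 (SE 0.33, adjusted p = 0.0260), with 53 reads listed.

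Neurod1, a neural and endocrine bHLH factor, went from 449 listed reads to none, with -1.94 (SE 0.39, adjusted p = 3.22e-05) from the authors' deposited table. The homeobox gene Nkx2-9 went from 968 to 90 reads, with -1.81 (SE 0.36, adjusted p = 2.31e-05). Hoxc13 went from 1468 to 61 reads, with -1.82 (SE 0.43, adjusted p = 0.000555) from the authors' deposited table. These genes gained H3K4me3, by 1.64 (SE 0.25), 2.38 (SE 0.20) and 1.99 (SE 0.13) in that order. Ptprt, a receptor tyrosine phosphatase, likewise went from 1294 to 270 reads with -1.45 (SE 0.44, adjusted p = 0.0105), and its H3K4me3 rose by 2.22 (SE 0.25) from the authors' deposited tables. Meis2, a homeobox partner of Hox proteins, went from 1606 to 143 reads with -1.41 (SE 0.34, adjusted p = 0.000724). Its H3K4me3 gave 0.13 (SE 0.26, adjusted p = 0.752), so a fall of H3K27me3 did not always come with a rise of H3K4me3. In Zbtb11KO, against the same wildtype libraries, the authors' deposited table gave -1.53 (SE 0.34) for Neurod1, -0.95 (SE 0.34) for Nkx2-9, -0.84 (SE 0.34) for Hoxc13, -0.998 (SE 0.34) for Cdkn1a and -0.90 (SE 0.37) for Meis2. Of these, Hoxc13 (adjusted p = 0.0740) and Meis2 (adjusted p = 0.0822) did not pass in Zbtb11KO.

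Families of developmental regulators had negative medians. Of 39 Hox genes 38 had a region in the authors' deposited table, all 38 had a negative log2 fold change, and 21 were called lower and 0 higher, with a median of -0.91. Neighbouring Hox genes share domains, and the 38 genes rest on 28 regions. Among other homeobox factors, 33 of 81 were lower and 0 higher, with a median of -0.75. Examples were Nkx2-2 at -1.14 (SE 0.32, adjusted p = 0.00515) and Meis1 at -1.18 (SE 0.34, adjusted p = 0.00657), factors of ventral neural tube and of blood and limb development. Forkhead factors gave 9 lower of 25 and 0 higher, median -0.75, with the pioneer factors Foxa1 at -1.01 and Foxa2 at -0.95. Neural bHLH and Sox factors gave 6 lower of 25, median -0.65, with Sox21 going from 3375 to 606 reads. The medians of these lists lay below that of all gene starts with a region, -0.40, and their regions were wide. After the median of all regions was subtracted, the number called lower dropped to 2 for Hox, 4 for other homeobox, 0 for forkhead and 2 for neural factors, although all 38 Hox values stayed negative.

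**Figure D2:**
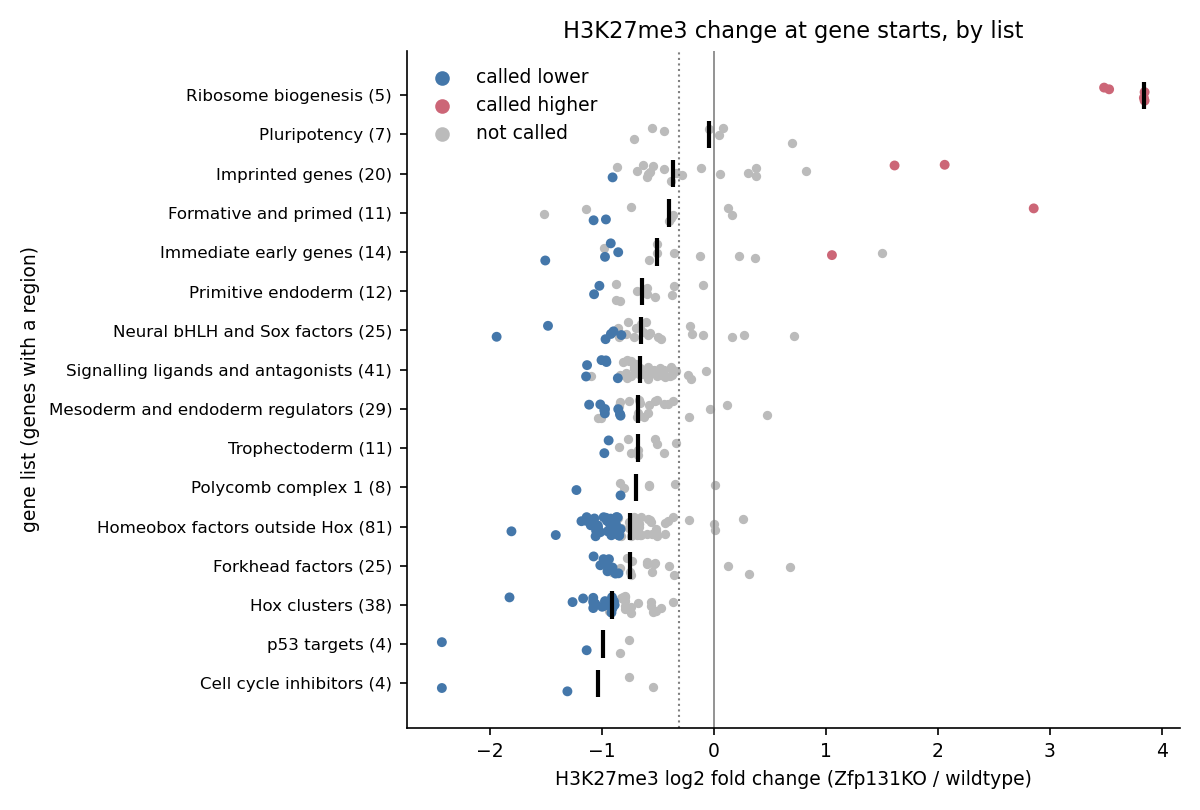
Log2 fold change of H3K27me3 (horizontal axis, Zfp131KO over wildtype, authors' deposited table) at the starts of genes in each list with 4 or more genes measured; each point is a gene, coloured by its call, the black bar is the list's median and the dotted line the median of all regions. Hox genes all lie below 0. Of 100 ribosome biogenesis genes only the 5 shown have a region. All 5 have a new domain and 0 a wildtype one, so their place above 0 is set by how they came to be measured.

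The other lineage lists showed the same direction with fewer calls. Mesoderm and endoderm regulators gave 8 lower of 29 in the authors' deposited table, median -0.68, among them the T-box gene Tbx18 at -1.11 (SE 0.36, adjusted p = 0.0161). Trophectoderm genes gave 2 lower of 11, Cdx2 at -0.94 and Eomes at -0.98. Signalling ligands and antagonists gave 6 lower of 41, with the BMP antagonist Nog at -1.14 and the activin antagonist Fst at -1.13. Primitive endoderm genes gave 2 lower of 12, among them the laminin gene Lamb1 at -1.07. Sox17 (-0.87, adjusted p = 0.0540) and Gata6 (-0.37, adjusted p = 0.452) did not pass. A part of cells with primitive endoderm features in these H3K27me3 values was not tested. After centring on the median of all regions, Nog was the only gene of these 4 lists still called lower.

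Cell cycle inhibitors and p53 targets had few marked members. By the authors' deposited table, 2 of 4 marked cell cycle inhibitors fell, Cdkn1a and Cdkn2c (-1.31, SE 0.39). Cdkn2a (-0.76) and Cdkn1c (-0.54) did not pass. Of 4 marked p53 targets, Cdkn1a and Pmaip1, the BH3-only protein Noxa, were lower, Pmaip1 at -1.14 (SE 0.36, adjusted p = 0.0154). Perp (-0.76) and Zmat3 (-0.84) did not pass. H3K4me3 was called higher at 13 of the 18 p53 targets and lower at 0, against 34.4% and 3.59% of all gene starts. Of 14 marked immediate early genes 4 were lower, with Jun from 1167 to 236 reads and -1.51 (SE 0.48, adjusted p = 0.0166) from the authors' deposited table, and Ier3 was higher at 1.05 (SE 0.38). Of these, Cdkn1a and Cdkn2c were still lower after centring, and no immediate early gene was.

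The marks of the Polycomb machinery itself were mixed. Of 8 PRC1 genes with a region 2 were lower in the authors' deposited table, among them Bmi1 (-1.23, SE 0.40, adjusted p = 0.0187), and 0 higher. Of 12 PRC2 genes only Epop (0.85, adjusted p = 0.0957) and Phf19 (-0.42, adjusted p = 0.38) had a region, and neither passed. Among pluripotency genes 7 had a region, with a median of -0.04 and no call in either direction, Esrrb giving -0.71 (adjusted p = 0.0951). In the formative list Fgf5 (-0.96, SE 0.35) and Foxd3 (-1.07, SE 0.36) were lower, and Tcf15, a bHLH factor that primes cells to leave the naive state, was higher at 2.85 (SE 0.78, adjusted p = 0.00362) from the authors' deposited table. After centring, no PRC1 or formative gene was still called lower. None of the 83 cytosolic ribosomal protein genes and 1 of the 78 mitochondrial ones had a region.

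New domains, defined as Zfp131KO domains of 200 bp or more that overlap no wildtype domain, numbered 1159 of 13160. Lost domains, the reverse, numbered 2288 of 13182. Most new domains were small, with a median width of 269 bp and 62 pooled reads, and only 94 reached 500 bp and 20 reached 1 kb. Since the lists rest on the same reads as the table, the direction of their fold changes is set by the choice and is given as a description. Of the 1159, 476 were called higher in the authors' deposited table, beside the background of 2.95%. By width the calls went from 413 of 1065 under 500 bp to 43 of 74 from 500 bp to 1 kb and all 20 of 1 kb or more, with medians of 1.06, 1.32 and 3.19.

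The wide new domains sat on ZFP131 sites. ZFP131 binding was taken from the authors' HA ChIP-seq events. These are of the induced HA-tagged copy in the Zfp131KO line, grown with doxycycline and the 2i inhibitors, a different culture. Binding of untagged ZFP131 in wildtype cells was not among the libraries. An event lay within 500 bp of 16 of the 20 new domains of 1 kb or more (80.0%), 21 of the 74 from 500 bp to 1 kb (28.4%) and 58 of the 1065 smaller ones (5.45%). Of all regions of 200 bp or more, 4.21% had an event, a share not matched for width. The regions with an event had a median width of 1549 bp, against 621 bp over all regions. The new domains with an event had a median log2 fold change of 2.89 in the authors' deposited table, and those without 1.04. The centre of the domain lay a median of 142 bp from the event. Of the 95 new domains with an event, 92 carried wildtype H3K4me3 and 81 lay at a gene start, against 460 and 273 of the 1064 without. A Zbtb11KO domain was present at 25 of the 95 (26.3%) and at 612 of the 1064 (57.5%).

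**Figure D3:**
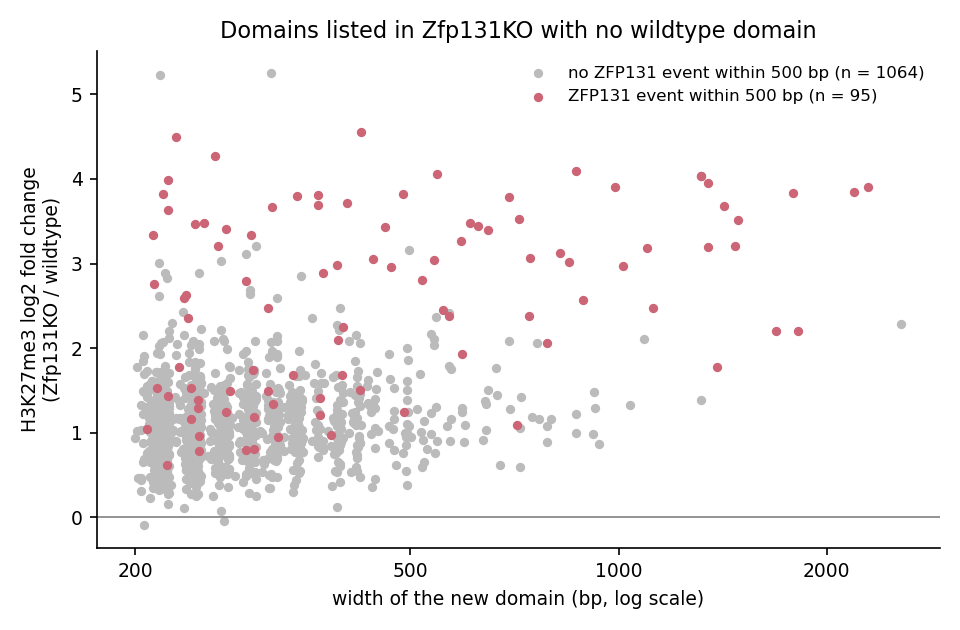
Each point is a domain listed in Zfp131KO with no wildtype domain, by its width (log scale) and its log2 fold change in the authors' deposited table. The 95 with a ZFP131 event within 500 bp (red) have a median of 2.89 and include 16 of the 20 of 1 kb or more; the 1064 without one have a median of 1.04.

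Where the tagged ZFP131 bound most strongly, a domain in wildtype was nearly absent and a domain in Zfp131KO was most often new. Of the 395 events with 800 or more pooled reads, 1 (0.253%, 0.0447 to 1.42 by the Wilson 95% interval) had a wildtype H3K27me3 domain within 500 bp and 54 (13.7%, 10.6 to 17.4) had one in Zfp131KO. In Zbtb11KO it was 1. Of the 1900 events with under 100 reads, 24.6% lay near a wildtype domain, 26.5% near one in Zfp131KO and 26.3% in Zbtb11KO. The share near a new domain was 2.47% in the weakest class and 4.31%, 5.98%, 7.66% and 13.7% in the classes from 100, 200, 400 and 800 reads. The intervals cover counting error only, and neighbouring events share promoters. Even in the strongest class, 341 of 395 events had no new domain near them.

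**Figure D4:**
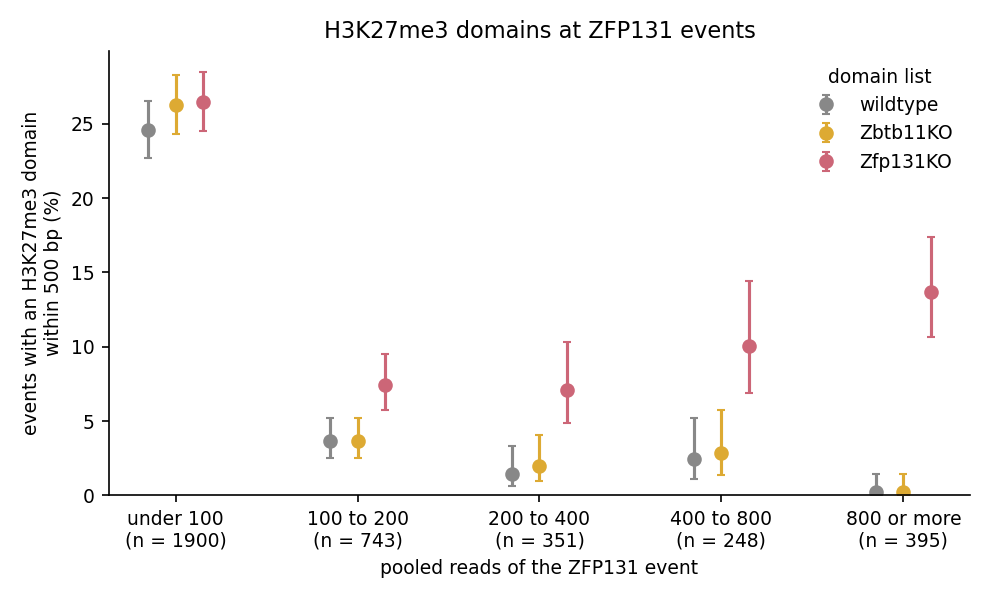
Percentage of ZFP131 events with an H3K27me3 domain of 200 bp or more within 500 bp (vertical axis; bars are Wilson 95% intervals), by the pooled reads of the event and by the genotype of the domain list. In the class of 800 or more reads wildtype and Zbtb11KO stand at 0.253% and Zfp131KO at 13.7%; in the class under 100 reads all 3 lie between 24.6% and 26.5%.

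The widest new domain at a gene start was at Nup214 (chr2:31973327-31975623), which encodes a nucleoporin of the cytoplasmic face of the pore. It spanned 2296 bp with 778 pooled reads in Zfp131KO, where control reads were 120 and wildtype had no domain. The authors' deposited table gave 3.90 (SE 0.48). An event of 2575 reads lay 36 bp from its centre. H3K4me3 fell there by 2.37 (SE 0.14, adjusted p = 4.67e-58) and H3K27ac fell by 2.07 (SE 0.37, adjusted p = 9.89e-07) from the authors' deposited tables. NELF, the pausing factor of RNA polymerase II, had an event of 1014 reads in wildtype and none listed in Zfp131KO.

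Ddx51, a DEAD-box RNA helicase of ribosome assembly, and Noc4l, a nucleolar factor, share a promoter covered by a new domain of 2195 bp and 943 reads (chr5:110652805-110655000). Its H3K27me3 gave 3.84 (SE 0.43) from the authors' deposited table, H3K4me3 fell by 1.33 (SE 0.11, adjusted p = 2.78e-29) and H3K27ac fell by 2.49 (SE 0.39, adjusted p = 2.28e-08). The promoter of Rrp1b, a nucleolar protein of ribosomal RNA processing, and Hsf2bp gained 552 reads, with 3.84 (SE 0.50). At the domain, and at Rrp1b, H3K4me3 and H3K27ac fell by 1.16 (SE 0.14) and 1.54 (SE 0.34), whereas the regions of highest signal at the Hsf2bp start gave -0.33 (adjusted p = 0.657) and -0.13 (adjusted p = 0.798) from the authors' deposited tables. Exosc7, a subunit of the RNA exosome, shares its promoter with the palmitoyltransferase gene Zdhhc3, where the domain had 470 reads and 3.68 (SE 0.47). There H3K4me3 fell by 1.44 (SE 0.14) and H3K27ac fell by 2.32 (SE 0.31) from the authors' deposited tables.

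Other wide new domains lay at Zcrb1 with Pphln1 (1821 bp, 508 reads), at the proline dehydrogenase gene Prodh (1691 bp, 485 reads) and at Rmdn3, a mitochondrial tether (1491 bp, 558 reads). The promoter of the DNA helicase gene Recql4 and Lrrc14 had 1474 bp and 452 reads. The authors' deposited table gave these a log2 fold change of 2.21 (SE 0.48), 2.20 (SE 0.44), 3.51 (SE 0.44) and 3.21 (SE 0.51) in that order. At Zcrb1 and Pphln1 the region of highest signal is a neighbouring one, with 51 wildtype reads and 0.07 (SE 0.47, adjusted p = 0.928) from the authors' deposited table. H3K27ac fell at Rmdn3 by 2.79 (SE 0.42, adjusted p = 2.68e-09) from the authors' deposited table. At Prodh, which had the weakest event of these (357 reads), H3K27ac gave -0.60 (SE 0.39, adjusted p = 0.241), and H3K4me3 fell by 0.75 (SE 0.12). The promoters of the RNA-editing enzyme gene Adar, of Dxo with Stk19, of Rnf166 with Ctu2, of Gpr89 and of Kif7 also carried new domains of 1 kb or more with an event. They had 465, 414, 355, 325 and 383 reads. Except for Stk19, these genes were named after their values were seen, as were Exosc7, Zdhhc3, Recql4 and Tbl3. Domains with an event also lay away from protein-coding starts, in Maff (80.4 event reads) and in Trmt61b over a tRNA gene (2590 event reads). At Dxo and Rnf166 H3K4me3 gave -0.39 (adjusted p = 0.294) and -0.45 (adjusted p = 0.150) and did not pass, whereas H3K27ac fell by 2.29 (SE 0.41) and 1.77 (SE 0.36) from the authors' deposited tables.

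**Figure D5:**
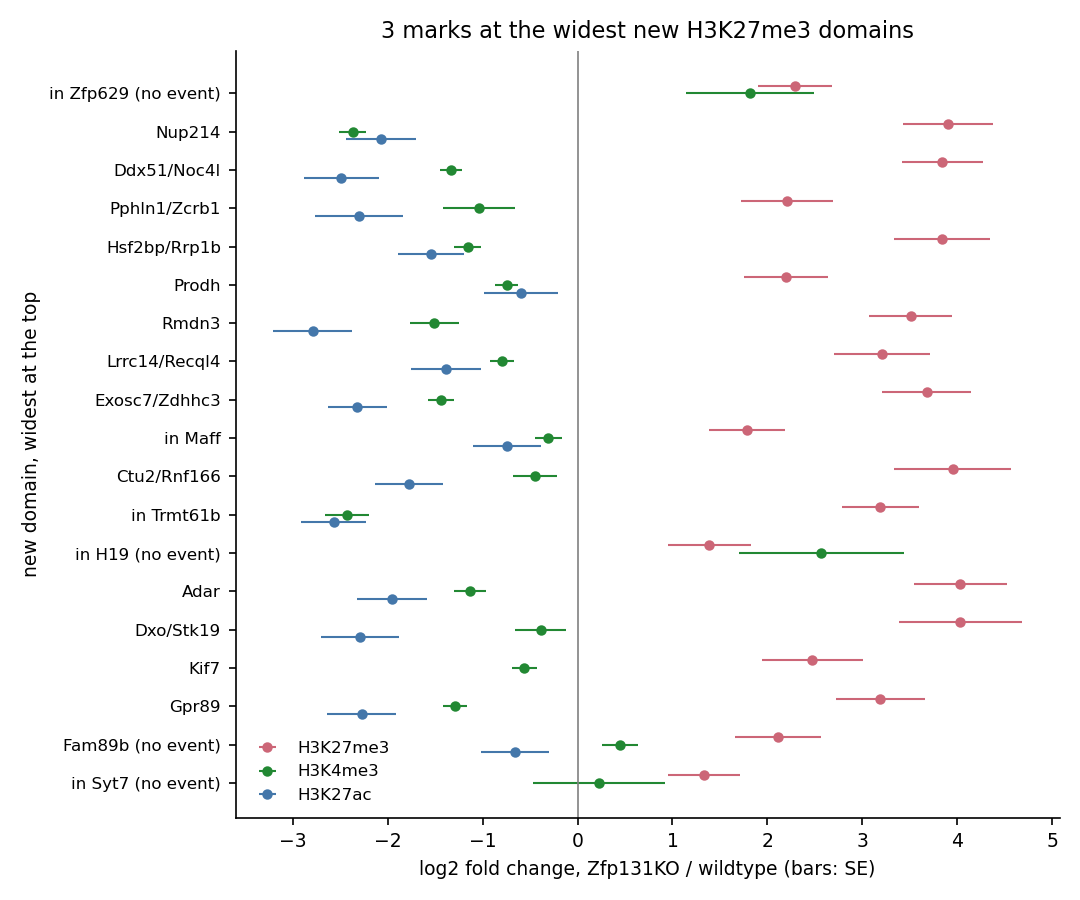
Log2 fold changes (horizontal axis, Zfp131KO over wildtype, authors' deposited tables) with their SE of H3K27me3, H3K4me3 and H3K27ac at the 19 widest new domains, named by the gene at the start or, with "in", the gene they lie in. At Nup214 H3K27me3 is at 3.90, H3K4me3 at -2.37 and H3K27ac at -2.07; the domains in Zfp629 and H19 have no ZFP131 event, and there H3K4me3 is above 0.

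Neighbouring gene starts were common in this set. Of the 15 new domains of 1 kb or more at a gene start, 7 lay within 1 kb of the starts of 2 genes (46.7%). Among 10445 wildtype H3K4me3 domains of 1 kb or more at a gene start, 11.1% did. For new domains under 500 bp it was 7.54% of those at a gene start.

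H3K27ac, and at ZFP131 events also H3K4me3, was often lower at the new domains. Of the 124 with an H3K27ac region, 68 were called lower and 2 higher in the authors' deposited table, with a median of -1.10, against 9.61% lower and 16.7% higher over all H3K27ac regions. Of the 500 with an H3K4me3 region, 84 were lower and 61 higher, with a median of -0.08, against 7.23% lower and 19.8% higher over all. The split followed the ZFP131 events. With an event, H3K27ac was lower at 45 of 61 and H3K4me3 at 55 of 92. Without one, they were lower at 23 of 63 and 29 of 408, and H3K4me3 was higher at 53. At events of 800 or more reads, H3K27ac was lower at 47 of the 52 with a new domain and an H3K27ac region and at 102 of 324 (31.5%) without a new domain. H3K4me3 was lower at 42 of 54 and at 95 of 337 (28.2%).

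A NELF event lay within 500 bp of 91 of the 95 new domains with a ZFP131 event in wildtype and of 62 in Zfp131KO. Its median pooled reads where wildtype had one were 583, against 140 at the same domains in Zfp131KO. The NELF lists as a whole shrank from 60923 to 20265 events at 60.5 M and 61.6 M reads. At the 1064 new domains without a ZFP131 event the numbers were 481 and 118. At ZFP131 events of 800 or more reads, NELF was still listed in Zfp131KO at 38 of the 54 with a new domain (70.4%) and at 308 of the 341 without (90.3%).

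Gene groups among the gains were small. Over all 21900 genes, 4550 (20.8%) had a region and 355 a new domain. Of 100 ribosome biogenesis genes 5, resting on 4 regions, had any H3K27me3 region, all 5 with a new domain: Ddx51, Noc4l, Rrp1b, the RNA-binding protein gene Nop9 (3.53, SE 0.55) and Tbl3 (3.48, SE 0.69), a component of the small-subunit processome. At Tbl3 the domain had only 66 reads over 251 bp, but H3K4me3 fell by 2.96 (SE 0.17, adjusted p = 1.73e-60) and H3K27ac fell by 2.56 (SE 0.38, adjusted p = 1.89e-09) from the authors' deposited tables. Of 29 nuclear pore genes 3 had a region, Nup214, Nup133 (2.47, SE 0.47) and Pom121, which did not pass (1.43, SE 0.55, adjusted p = 0.0537). With 1 region per gene, the gene with the highest log2 fold change in the authors' deposited table, named after its value was seen, was the DNA repair gene Brca2 at 4.27 (SE 0.54), in a domain of 261 bp and 79 reads. Its H3K4me3 fell by 1.33 (SE 0.13) and H3K27ac by 1.66 (SE 0.39). Thoc1, of the mRNA export complex THO, had the most event reads of any gene with a new domain, 3403. It gained H3K27me3 at 3.07 (SE 0.49) and lost H3K27ac by 1.88 (SE 0.39), while H3K4me3 gave -0.08 (SE 0.24, adjusted p = 0.839) from the authors' deposited tables.

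The imprinted genes Plagl1, Nnat and H19, expressed from 1 parental copy, gained H3K27me3 together with H3K4me3 and without a ZFP131 event at the domain. Plagl1, a zinc finger regulator of growth (chr10:13090301-13091664), went from 12 to 477 listed reads. Its H3K27me3 rose by 1.61 (SE 0.34, adjusted p = 7.29e-05) and H3K4me3 by 2.23 (SE 0.24) from the authors' deposited tables. Nnat, the neuronatin gene, had a new domain of 763 bp and 256 reads, with 2.06 (SE 0.45), and H3K4me3 rose by 1.11 (SE 0.39, adjusted p = 0.0209) from the authors' deposited tables. A new domain of 1318 bp and 350 reads lay inside the non-coding gene H19 (chr7:142576451-142577769), named after its value was seen. It gave 1.39 (SE 0.44), and H3K4me3 rose there by 2.57 (SE 0.87, adjusted p = 0.0160) from the authors' deposited tables. Zbtb11KO, over all its regions, had 1.51% called higher and 2.52% lower. The same regions there, against the same wildtype libraries, gave 1.84 (SE 0.34), 1.50 (SE 0.47) and 0.92 (SE 0.39). The last, at H19, did not pass (adjusted p = 0.0983). In the whole imprinted list 2 of 20 genes with a region were higher and 1 lower, Igf2, next to H19, at -0.90 (SE 0.33, adjusted p = 0.0399). The widest new domain of all, 2567 bp and 877 reads inside Zfp629, also had no ZFP131 event. It gave 2.29 (SE 0.39), with H3K4me3 at 1.82 (SE 0.68, adjusted p = 0.0320), and 1.94 (SE 0.39) in Zbtb11KO in the authors' deposited tables.

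Some bivalent genes gained in small steps. Vwa1, B4gat1, Cfap99 with Zfyve28, and Gpr153 rose by 1.27 (SE 0.34), 1.18 (SE 0.35), 1.30 (SE 0.48) and 1.18 (SE 0.33) from the authors' deposited table. The listed domains overlapping these regions held 13, 129, 63 and 63 reads in wildtype and 115, 527, 365 and 500 in the knockout. At Vwa1 the overlapping wildtype piece spanned 39 bp. The wildtype domain of 200 bp or more that makes Vwa1 bivalent therefore lies outside this region. H3K4me3 was not called at any of these genes. The rule for well-covered rises also named Nr2f6, an orphan nuclear receptor gene (1.08, SE 0.36), and the complex I gene Ndufa13 (1.03, SE 0.34). These were 0.99 (SE 0.34) and 1.24 (SE 0.32) in Zbtb11KO in the authors' deposited table.

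The 2 directions differed along the genome. On the X chromosome, 46 of 248 regions were lower (18.5%) and 1 higher, with a median of -0.68 in the authors' deposited table. The list of domains of 200 bp or more on X went from 221 in wildtype to 65 in Zfp131KO and 229 in Zbtb11KO. Of 336 windows of 2 Mb with 20 or more regions, the highest medians were at 60 to 62 and 62 to 64 Mb of chromosome 10, 0.71 and 0.58. H3K4me3 (0.66 and 0.62), H3K27ac (1.16 and 1.00) and H3K27me3 in Zbtb11KO (0.46 and 0.40) were also above 0 in these windows.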

How the data were processed

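The submitters' processing notes list Bowtie 1.0.1, DESeq2 1.28.1, bedtools and the mm10 build. Domains were called with DomainFinder on pooled replicates at p under 0.01, per the file headers, and the deposited lists give a read count, a control count and a p-value per domain. ZFP131 and NELF events come from MultiGPS, per the file headers, with signal reads, a log2 fold and a log2 p score per event. The authors' deposited DESeq2 tables give mean signal, log2 fold change, SE, p-value and adjusted p-value per region. No count per library was used here, so the edgeR fit planned for counts was not run and the authors' DESeq2 tables were used.

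From these, regions of 200 bp or more, gene starts (RefSeq GRCm38.p6, with H3K4me3 domains to choose between gene ends), new and lost domains and ZFP131 events within 500 bp were joined in Python 3.11.15 with pandas 2.3.3. A call is an adjusted p under 0.05. Intervals are Wilson 95%. The joins and calls were tested on simulated data. Genes were named from called starts whose mean signal reached the median of all regions (124). From these came the 10 largest falls and the largest rises, with a limit of 15, though only 13 genes met that rule. Other named genes were as many as 4 per list in order of adjusted p and the 10 with the widest new domains. The rest were the 5 with the most wildtype reads and the 5 largest bivalent rises. They also included the deleted gene and the 5 most bound genes with a new domain. The members and lists were chosen with earlier results of these data known. The CHD4 event list of Zfp131KO is identical to that of SIN3A, so CHD4 is not reported. Some genes that the rule names are not reported here.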

Additional observations from a re-analysis of the deposited data

How the results depend on the processing

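In the authors' deposited table, regions called higher and lower numbered 261 and 327 at an adjusted p under 0.01, 8590 and 4545 with regions of any width and 42 and 704 from 1 kb. With a mean signal that reached its median they numbered 24 and 666 as deposited, and 7 and 46 once p was adjusted again over those regions. The signal filter with p as deposited, the adjustment alone, the SE, centring over the whole table and every setting for gene lists were chosen after seeing the data. Centring with p adjusted over regions of 200 bp or more left 114 lower, and over the whole table it gave 1386 higher and 307 lower. That adjustment alone gave 358 and 591, and with the SE for the reads of the region 168 and 356. At gene starts an adjusted p under 0.01 gave 125 and 58, the 2 centrings 18 lower, and 360 higher and 49 lower, the adjustment alone 119 lower, and the SE 93 and 96. Polycomb targets gave 0 higher with wildtype domains of 1 kb or more, 16 and 18 or 49 and 49 centred, 3 and 119 with the adjustment alone, and 3 and 96 with the SE. Over the gene lists lower calls went from 96 to 5 or 11 centred, 34 with the adjustment alone and 29 with the SE, and at regions with a ZFP131 event from 73 to 30 with the adjustment alone and 26 with the SE. H3K4me3 at new domains was higher at 39 at 0.01. New, lost and shared domains numbered 20, 40 and 2939 from 1 kb. Asking for no domain of the other genotype within 1 kb left 497 new and 513 lost, and asking for 50% overlap gave 2795 and 6631. All 20 new domains of 1 kb or more were higher under both centrings, the adjustment alone and the SE. Of 75 named genes called, 29 lost the call when centred over the whole table, 25 with the adjustment alone and 33 with the SE, and 0 changed sign. No paired analysis was possible because the deposited values are pooled or fitted per genotype; for the same reason no replicate was left out.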
